A study of Mus musculus with 6 samples.

Results

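Levels of 10 transcription regulators of meiosis and of spermiogenesis, the shaping of the haploid spermatid into a sperm, were followed through mouse germ cell differentiation and compared between control and nicotine-exposed mice. The members were taken by gene symbol: Mybl1, Crem, Tbpl1, Rfx2, Sox30, Taf7l, Fhl5, Nkx2-6, Pou5f2 and Dmrtc2. All 10 were found among the 32285 genes of the count matrices. The control group was 3 male C57BL/6J mice on normal drinking water. The nicotine group was 3 male mice of the same strain whose drinking water held nicotine at 200 µg/mL from the age of 3 weeks, for 8 weeks. All 6 mice were 11 weeks old, and the testes of each mouse gave 1 droplet single-cell library (10x Genomics 3′ v3), so the mouse is the replicate.

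Male germ cells switch their transcription programme when they enter meiosis and again when haploid spermatids form. MYBL1 (A-MYB) activates meiotic genes and piRNA precursors in spermatocytes, CREM with its coactivator FHL5 (ACT) activates genes of sperm structure in round spermatids, and RFX2 and SOX30 act on overlapping stages of spermatid differentiation. Part of the switch lies in the basal transcription machinery, where TBPL1 (TRF2) is a relative of the TATA-binding protein TBP and TAF7L a testis-enriched relative of the TFIID subunit TAF7.

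The 6 libraries kept 9848 to 11008 cells each, 61945 in all, of 10823 to 12317 barcodes and 67853893 to 88329607 UMIs (unique transcript molecules) per library. Of these cells, 25574 (41.3%) lay in 14 germ cell classes that were rebuilt by clustering and named from marker genes, with the 10 members left out. They span the order from spermatogonia to elongating spermatids (each name carries "-like"), and 12 with at least 20 cells in every mouse were ranked. Another 26721 cells (43.1%) lay in germ cell clusters of low UMI number that were not staged. The somatic clusters held 5608 cells, among them Leydig-like, Sertoli-like, stromal-like and macrophage-like cells, and 4042 cells (6.53%) were clustered again and not placed. The libraries shared 478 barcode sequences, carried by 958 kept cells (1.55%). In 8 of the 12 ranked classes, every nicotine mouse had a lower median UMI number per cell than every control mouse.

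Levels are given as CPM, the gene's UMIs per 1000000 UMIs summed over the cells of a class in 1 mouse, as mean ± SD over 6 mice (n = 6). They describe each gene across classes and are not compared between genes. The level in Leydig-like cells, which lie outside the germ line, is given beside them, since free RNA in the droplets gives UMIs in cells that do not express a gene. Every member had a higher mean level in Sertoli-like cells, whose median UMI numbers averaged 962 in control and 932 in nicotine mice. A level above that of Leydig-like cells alone therefore does not show expression in a class. The highest levels of the 10 regulators fell in 6 of the 12 ranked classes, from early spermatocytes to the turn from round to elongating spermatids. They fell in spermatocyte-like classes for Mybl1, Taf7l, Rfx2, Dmrtc2 and Pou5f2, at the meiotic divisions for Tbpl1, in mid round spermatids for Crem and Nkx2-6, and in the joint round/elongating class for Sox30 and Fhl5.

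**Figure D1:**
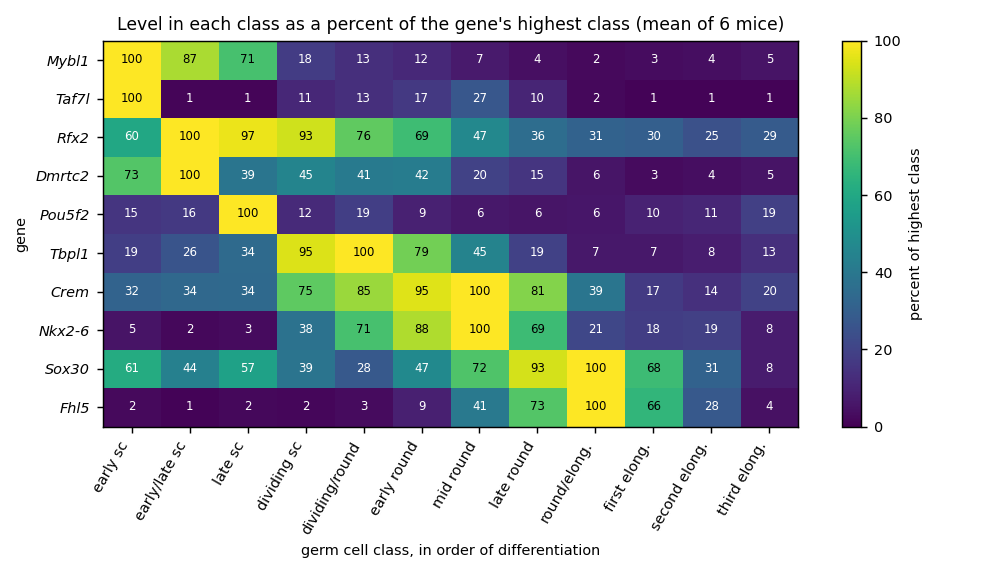
Mean level of each regulator (rows) in 12 germ cell classes in order of differentiation (columns), as a percent of that gene's highest class; colour and printed numbers both give the percent (n = 6 mice). The highest class moves from early spermatocytes (Mybl1, Taf7l) to the round/elongating class (Sox30, Fhl5), and Taf7l falls to 1.25% of its highest level in the next class.

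**Figure D2:**
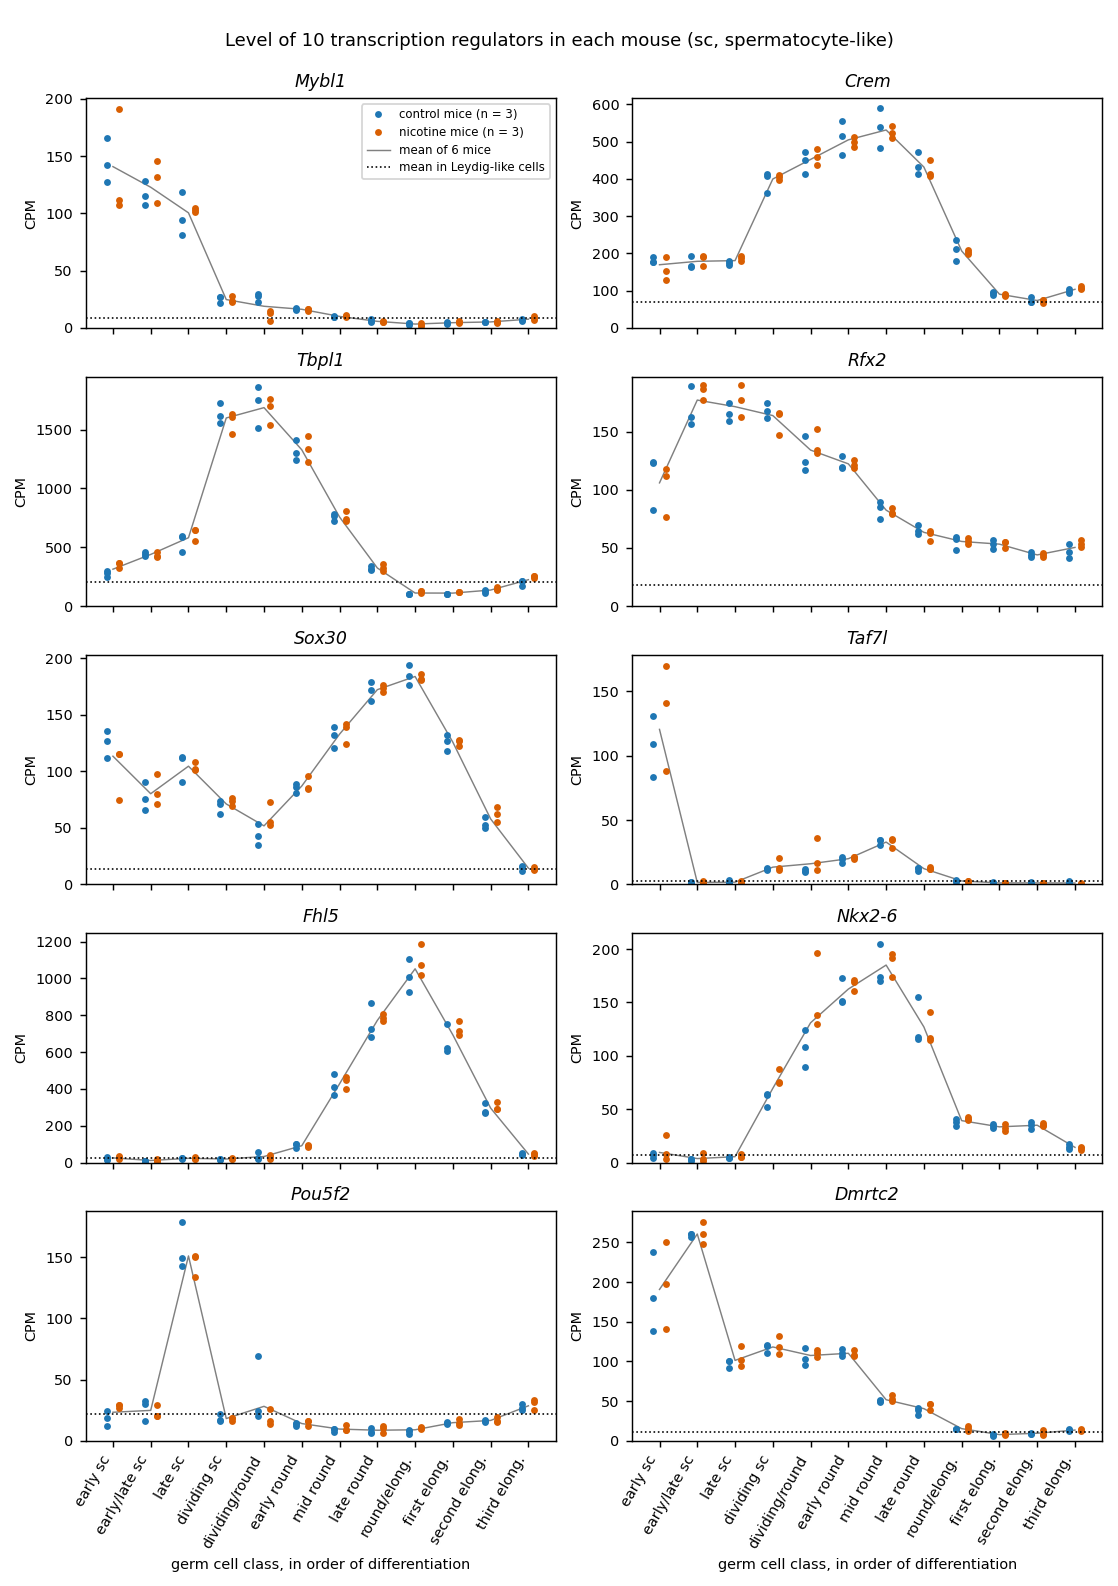
Level in CPM (vertical axis, from 0) of each regulator in each of 3 control and 3 nicotine mice, across 12 germ cell classes (horizontal axis); the grey line joins the means of 6 mice and the dotted line is the mean in Leydig-like cells. Mice of both groups follow the same course in each panel, and Pou5f2 stands up in the late spermatocyte-like class at 134 to 179 CPM.

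Among the DNA-binding regulators of spermatocytes, Mybl1, whose loss halts male meiosis at pachytene, was highest in the early spermatocyte-like class at 141 ± 32.6 CPM. Control mice had 127, 142 and 166 CPM there and nicotine mice 191, 107 and 112 CPM, so the groups overlapped. Its level was 123 ± 15.1 CPM in the joint early/late class and 100 ± 12.5 CPM in the late spermatocyte-like class, and the mice of these classes overlapped with those of the highest. In the dividing spermatocyte-like class it was 24.8 ± 2.59 CPM, below every mouse of the earlier classes, and from late round spermatids onward it lay at or below the Leydig-like level of 8.5 ± 4.83 CPM.

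Dmrtc2 (DMRT7), a DM-domain protein that male germ cells need to pass pachytene, was highest in the joint early/late spermatocyte-like class, at 261 ± 9.21 CPM. The control mice had 261, 257 and 260 CPM and the nicotine mice 276, 261 and 248 CPM, a narrow spread in which the groups overlapped. The mice of the early spermatocyte-like class, at 191 ± 47 CPM, overlapped with these, and those of the late spermatocyte-like class, at 101 ± 9.6 CPM, did not. From there the level stayed between 101 and 118 CPM up to early round spermatids, where it was 110 ± 3.44 CPM, and in the 3 elongating classes it was 7.69 to 13.4 CPM, around the Leydig-like level of 11.2 ± 7.3 CPM.

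Rfx2, a winged-helix factor that binds X-box sites of cilium and flagellum genes, had the flattest course of the 10, with its highest class 4.02 times its lowest. Among ranked classes it was highest in the joint early/late class at 177 ± 14.2 CPM, with 157, 163 and 189 CPM in control mice and 190, 187 and 177 CPM in nicotine mice. The late (172 ± 11.3 CPM) and dividing (164 ± 9.12 CPM) spermatocyte-like classes overlapped with it, so no single stage stood apart, and the unranked joint late/dividing class had a mean of 179 ± 19.6 CPM. In elongating spermatids it still measured 44 to 53.3 CPM, above its Leydig-like level of 18.2 ± 6.15 CPM and below its Sertoli-like mean of 68.6 ± 15 CPM.

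Pou5f2 (SPRM-1), a POU-domain protein of male germ cells, stood out in a single ranked class. It was highest in the late spermatocyte-like class at 151 ± 15.1 CPM, with 179, 149 and 143 CPM in control mice and 134, 151 and 150 CPM in nicotine mice. The next ranked class had 28.5 ± 3.52 CPM, and 7 of the 12 ranked classes lay at or below the Leydig-like level of 22.2 ± 8.54 CPM. Sertoli-like cells had 118 ± 9.13 CPM, above every ranked class but the late one. The small joint late/dividing class, which was not ranked because 1 mouse gave 15 cells, had 201 ± 28.2 CPM. The late spermatocyte-like class has a median of 5342 UMIs per cell against 26727 in the joint early/late class before it, and an unstaged cluster (median 2841 UMIs) had 227 CPM. Pou5f2 (chr13:78024902-78026295, GRCm38, plus strand) lies inside Fam172a on the same strand, so reads of the host gene cannot be fully told apart from its own. Fam172a did not follow the same course: it had 137 ± 10.2 CPM in the late class, 199 ± 13.3 CPM in the early class and 27.8 ± 4.23 CPM in the joint late/dividing class.

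To show the sequence next to the start sites of regulators that are on together in spermatocytes, and of Sox30, which is present in spermatocytes and again in spermatids, 250 bases upstream of the RefSeq start are printed 5′ to 3′ on the gene's strand. Capitals mark the MYB core (AACTG or AACGG) and a partial X-box (GTTGCC), which is not a full X-box site, searched on both strands.
Rfx2 (GRCm38.p6, chr17:56831009-56831258, minus strand): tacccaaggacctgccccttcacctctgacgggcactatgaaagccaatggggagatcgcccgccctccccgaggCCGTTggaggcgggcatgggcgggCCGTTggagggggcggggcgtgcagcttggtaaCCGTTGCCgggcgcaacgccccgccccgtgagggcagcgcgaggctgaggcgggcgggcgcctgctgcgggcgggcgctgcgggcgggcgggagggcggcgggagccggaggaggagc
Dmrtc2 (GRCm38.p6, chr7:24869807-24870056, plus strand): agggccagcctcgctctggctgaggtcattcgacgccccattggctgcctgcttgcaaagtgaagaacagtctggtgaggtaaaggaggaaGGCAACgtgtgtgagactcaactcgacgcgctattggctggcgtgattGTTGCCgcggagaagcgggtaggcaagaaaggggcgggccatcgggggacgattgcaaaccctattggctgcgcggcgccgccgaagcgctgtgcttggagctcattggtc
Pou5f2 (GRCm38.p6, chr13:78024652-78024901, plus strand): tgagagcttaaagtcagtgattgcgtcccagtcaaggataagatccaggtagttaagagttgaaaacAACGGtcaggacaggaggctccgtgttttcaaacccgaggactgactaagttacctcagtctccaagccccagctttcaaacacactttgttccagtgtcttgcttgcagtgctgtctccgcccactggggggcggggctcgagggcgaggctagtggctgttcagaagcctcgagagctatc
Sox30 (GRCm38.p6, chr11:45980060-45980309, plus strand): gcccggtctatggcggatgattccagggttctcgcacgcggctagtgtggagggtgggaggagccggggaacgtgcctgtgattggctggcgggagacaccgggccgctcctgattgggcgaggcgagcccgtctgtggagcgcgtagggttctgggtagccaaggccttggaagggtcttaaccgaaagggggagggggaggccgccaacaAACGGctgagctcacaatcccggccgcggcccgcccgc
Among all 32851 windows of this length, 48.6% hold a MYB core and 10.4% a partial X-box. The Rfx2 window holds 3 MYB cores and 1 partial X-box, which shares bases with 1 of the cores in the run CCGTTGCC. The Dmrtc2 window holds 2 partial X-boxes and no MYB core. Pou5f2 and Sox30 hold 1 MYB core each, as do Tbpl1, Taf7l and 1 of the 2 Fhl5 windows. RefSeq windows matched 7 of the 10 members, with Mybl1, Crem and Nkx2-6 unmatched. A partial CRE (TGACG) occurs in 17.8% of all windows and among the members in that of Rfx2. The TATA box (TATAAA) occurs in 12.4% of all windows and among the members in that of Taf7l. Its 2 matches there are 1 on each strand and share bases in the run TTTATAAA, so they are 1 site. These matches describe letters and not binding.

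In the basal machinery, Tbpl1 was higher in each ranked class than in the one before up to the division stages. Its highest level, 1687 ± 138 CPM, was in the joint dividing spermatocyte/round spermatid-like class, with 1749, 1863 and 1511 CPM in control mice and 1701, 1761 and 1535 CPM in nicotine mice. The dividing spermatocyte-like class, at 1599 ± 85.7 CPM, overlapped with it, and early round spermatids, at 1328 ± 88.7 CPM, lay below the mice of both. By late round spermatids the level was 324 ± 21.4 CPM, and in the joint round/elongating, first and second elongating classes it was 111 to 137 CPM, under the Leydig-like level of 201 ± 41.5 CPM. The parental gene Tbp, which encodes the TATA-binding protein, had its highest ranked level in the dividing spermatocyte-like class, at 134 ± 12.7 CPM, and fell to 11.1 CPM in late round spermatids. The joint class that led for Tbpl1 is uneven, with 167 of its 435 cells from control mouse 1 and 30 to 96 from each of the others.

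Taf7l was nearly absent from 2 classes between its early and its late expression. This X-linked gene (chrX:134460118-134476490, GRCm38, minus strand) had 120 ± 33.2 CPM in the early spermatocyte-like class, with 109, 83.7 and 131 CPM in control mice and 141, 87.9 and 170 CPM in nicotine mice. In the joint early/late class it had 1.5 ± 0.927 CPM from 11 UMIs over 6 mice, and in the late class 1.66 ± 1.01 CPM from 16 UMIs, at or below the Leydig-like level of 2.92 ± 2.77 CPM. It returned in dividing spermatocytes (13.4 ± 3.65 CPM) and reached a second, lower maximum of 32.8 ± 2.55 CPM in mid round spermatids, with no mouse of these classes overlapping the early class. After thinning every cell to 2000 UMIs, 23.3% ± 3.98 of early spermatocyte-like cells held a Taf7l UMI, against 0.409% ± 0.459 in the joint early/late class, 6.48% ± 0.571 in mid round spermatids and 0.603% ± 0.597 in Leydig-like cells. Without thinning these shares were 35.6%, 4.48%, 47.2% and 1.83%, at median depths of 5144, 26727, 17478 and 6896 UMIs. The few spermatogonium-like cells, 57 in all and not ranked, had 289 ± 109 CPM.

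X-linked transcripts as a whole took a similar path, measured without Taf7l over 1083 genes. X chromosome genes are silenced in pachytene spermatocytes as part of meiotic sex chromosome inactivation, a process long known in mice. X-linked UMIs were 0.994% ± 0.162 of all UMIs in the early spermatocyte-like class, 0.0646% ± 0.0115 in the joint early/late class and 0.106% ± 0.0113 in the late class. They returned to 0.53% ± 0.0358 in dividing spermatocytes and 1.29% ± 0.0466 in mid round spermatids, and differ from Taf7l after that: in the first elongating class the X-linked share was 1.56% ± 0.0523 while Taf7l had 1.09 ± 0.42 CPM. The autosomal paralogs behaved otherwise. Taf7, the ubiquitous form, was highest in early spermatocytes at 103 ± 8.76 CPM, was still at 67.8 ± 9.63 CPM in the joint early/late class where Taf7l was at background, and had 6.82 ± 1.06 CPM in mid round spermatids. Taf7l2, a chromosome 10 copy (chr10:116111664-116113917, GRCm38, minus strand), had 347 CPM in the joint early/late class and its highest ranked level, 441 ± 18.5 CPM, in dividing spermatocytes. Taf7l and Taf7l2 are related copies, and no source used here says how reads matching both were assigned, so their levels are uncertain.

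**Figure D3:**
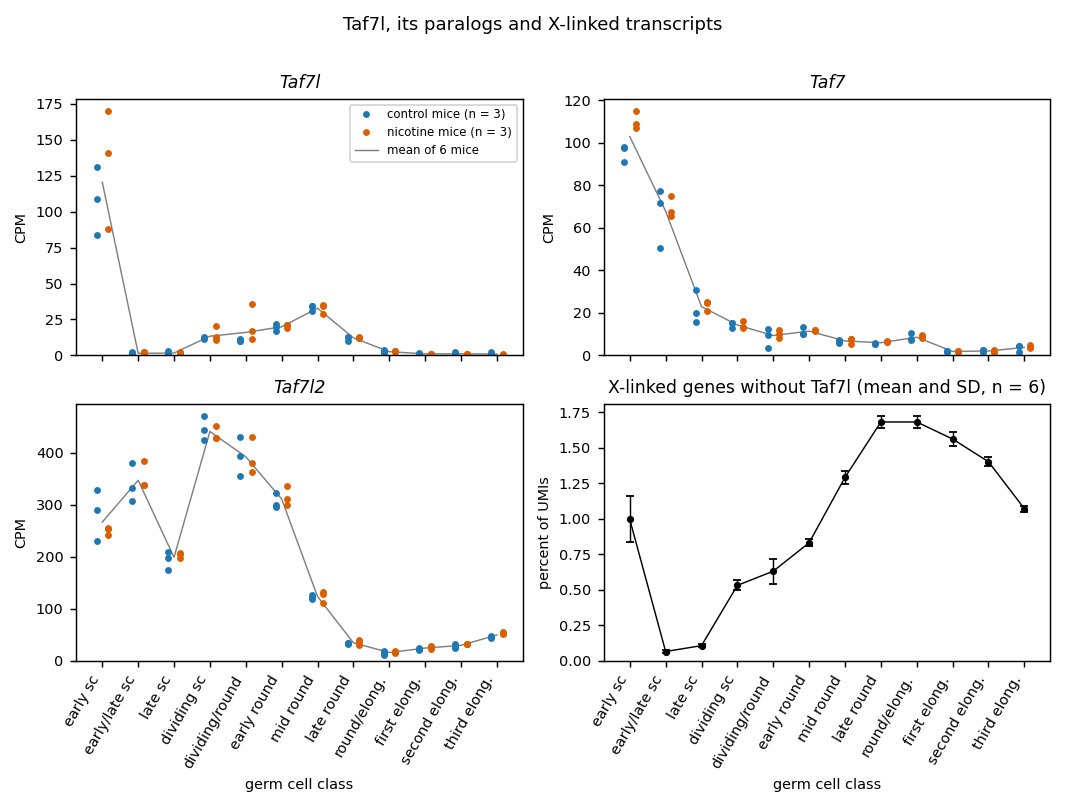
Levels in CPM of Taf7l, Taf7 and Taf7l2 in each mouse (points; grey line, mean of 6 mice) and the percent of UMIs from X-linked genes other than Taf7l (mean and SD, n = 6), across 12 germ cell classes. Taf7l and the X-linked share both drop in the joint early/late spermatocyte-like class, to 1.5 CPM and 0.0646%, while Taf7l2 stands at 347 CPM there.

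Crem, the cAMP-responsive factor whose loss stops mouse spermatids at the round stage, had a mean above its Leydig-like level (70.2 ± 13.3 CPM) in all 12 ranked classes. Its mean in Sertoli-like cells, 216 ± 26.8 CPM, was above those of the elongating classes (73.6 to 104 CPM). Crem had 170 to 181 CPM in the early, joint and late spermatocyte-like classes, also below the Sertoli-like mean. It had 400 ± 19.2 CPM in dividing spermatocytes and was highest in mid round spermatids at 531 ± 35.7 CPM. There the control mice had 484, 590 and 538 CPM and the nicotine mice 509, 542 and 524 CPM, all within the control range. Early round spermatids, at 505 ± 30.3 CPM, overlapped with this class, and the joint round/elongating class, at 207 ± 18.3 CPM, lay below it. The gene makes activator and repressor forms from the same locus, and counts of 3′ ends per gene do not separate them. Of the relatives, Atf1 had 103 ± 5.86 CPM and Creb1 6.96 ± 0.616 CPM in mid round spermatids, and Creb1 was highest in spermatocytes, with 89.3 ± 8.32 CPM in the late class.

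Fhl5, the LIM-only coactivator of CREM, came up later than Crem. It was 11 to 32.6 CPM in all ranked classes up to the joint dividing/round class, a range around its Leydig-like level of 23.9 ± 14.3 CPM, then 91.4 ± 9.27, 427 ± 44.3 and 772 ± 64.3 CPM in early, mid and late round spermatids. It was highest in the joint round/elongating class at 1052 ± 90.7 CPM, with 925, 1103 and 1006 CPM in control mice and 1017, 1188 and 1072 CPM in nicotine mice. No other class overlapped with these values. Where Fhl5 was highest, Crem was at 39% of its own highest level, and where Crem was highest, Fhl5 was at 40.6% of its own. Among other genes of the FHL family, Fhl4 was highest in the third elongating class (937 ± 38.9 CPM), and Fhl1, Fhl2 and Fhl3 stayed under 2 CPM in every ranked class.

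Sox30, an HMG-box factor needed for spermatids to pass the round stage, was present in spermatocytes and again in spermatids. It had 113 ± 21 CPM in early spermatocytes, was lowest among the stages up to late round spermatids in the joint dividing/round class at 51.7 ± 12.9 CPM, where its mice overlapped with the dividing class (71.1 ± 4.96 CPM), and was highest in the joint round/elongating class at 184 ± 5.89 CPM. That class had 176, 194 and 184 CPM in control mice and 181, 186 and 182 CPM in nicotine mice, and late round spermatids (172 ± 5.85 CPM) overlapped with it. In the third elongating class it was at 14.3 ± 1.88 CPM, near the Leydig-like level of 13.6 ± 3.78 CPM. Its relatives Sox5 and Sox6 were highest elsewhere, Sox5 in mid round spermatids (529 ± 17.8 CPM) and Sox6 in late spermatocytes (276 ± 19.3 CPM).

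Nkx2-6, a homeobox gene better known from the embryonic pharynx and heart, was near its Leydig-like level in the early, joint early/late and late spermatocyte-like classes and had means above it from the dividing class onward. It had 3.7 to 9.44 CPM in the early, joint and late spermatocyte-like classes, beside 7.28 ± 4.45 CPM in Leydig-like cells, and 69.5 ± 12.5 CPM in dividing spermatocytes. Its highest level was 185 ± 14.3 CPM in mid round spermatids, with 174, 205 and 170 CPM in control mice and 174, 195 and 192 CPM in nicotine mice, and the early round (163 ± 10.1 CPM) and joint dividing/round (131 ± 36.4 CPM) classes overlapped with it. The Sertoli-like mean of Nkx2-6, 37.6 ± 10.5 CPM, was above those of the elongating classes (14.2 to 34.9 CPM) and near that of the joint round/elongating class (39.2 ± 2.98 CPM). Its relative Nkx2-3 stayed under 2 CPM in every ranked class.

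The course of each member was also set against that of every gene that reached 20 CPM in a ranked class, 11371 genes, by Pearson's r of log2(CPM + 1) over 72 points (12 classes in 6 mice). Points of 1 mouse share a library and those of 1 class share their stage and a like depth, so r is a description. Closest to Mybl1 were Kmt2e (0.986), Brd8 and Sycp2, a synaptonemal complex protein. Dmrtc2 was most like Hsp90aa1 (0.986), Psma3 and Cwc15, and Rfx2 like Rp9 (0.971), Wdr93 and Wdr48. The course of Tbpl1 was closest to Phospho2 (0.988), Tomm22 and Ska1, and that of Crem to Sucla2 (0.984), Idi1 and Nupl2. Fhl5 was closest to Cypt12 (0.989), Samd4 and 1700023F06Rik, and Nkx2-6 to 1700001L19Rik (0.972), Gm6569 and 1700001J03Rik. Taf7l was closest to Usp26 (0.951), an X-linked germ cell gene, then Fn1 and Homer1. The match was weaker for Sox30, with Cdc16 (0.913), Sltm and Znrf1, and weakest for Pou5f2, with Fgf7 and Esrp1 (both 0.876) and Gm16835. Between members the highest r was 0.90, for Rfx2 and Dmrtc2, and the lowest was -0.82, for Mybl1 and Fhl5.

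Nicotine exposure was tested on UMI counts summed per mouse and class with edgeR's quasi-likelihood test, 3 control against 3 nicotine mice, with Benjamini-Hochberg adjustment over all genes of a class at 0.05. Of the 120 pairs of member and ranked class, 112 passed the filter on low counts. No pair was called (0 of 112), against 0.0153% of gene tests over the 12 classes. At an unadjusted p under 0.05 there were 8 pairs (7.14%), against 4.92% of all gene tests, and DESeq2 called 0. The 8 pairs that were not tested were Taf7l in 5 classes (joint early/late, late and the 3 elongating classes) and Nkx2-6 in the early, joint early/late and late spermatocyte-like classes. By class, calls were 0.0112%, 0.104% and 0.0216% of genes in the joint early/late, late and the third elongating classes, and 0% in the early spermatocyte-like class and in the 6 classes from early round to second elongating spermatids.

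In its own highest class, each member had a 95% interval that held 0, and in 9 of 10 the interval lay within a 1.5-fold change either way. The narrowest intervals were those of Crem, at a log2 fold change of -0.03 (nicotine minus control, 95% interval -0.18 to 0.11) in mid round spermatids, and of Fhl5, at 0.10 (-0.05 to 0.25) in the joint round/elongating class. Sox30 had -0.02 (-0.18 to 0.14), Nkx2-6 0.02 (-0.14 to 0.19), Tbpl1 -0.05 (-0.23 to 0.13) and Dmrtc2 0.01 (-0.18 to 0.20). Rfx2 had 0.11 (-0.09 to 0.32) and Pou5f2 -0.12 (-0.33 to 0.09). The early spermatocyte-like class, with 51 to 75 cells per mouse, gave the widest intervals, at -0.09 (-0.53 to 0.36) for Mybl1 and 0.31 (-0.17 to 0.79) for Taf7l, so a change of 1.5-fold was within the interval of Taf7l. The Taf7l value was 0.09 without nicotine mouse 3, 0.55 without nicotine mouse 2, 0.15 without control mouse 2, 0.47 without control mouse 3, 0.10 with no doublet removal and 0.01 with a minimum of 1000 UMIs. The adjusted p of all 10 by edgeR was 0.909 or higher.

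**Figure D4:**
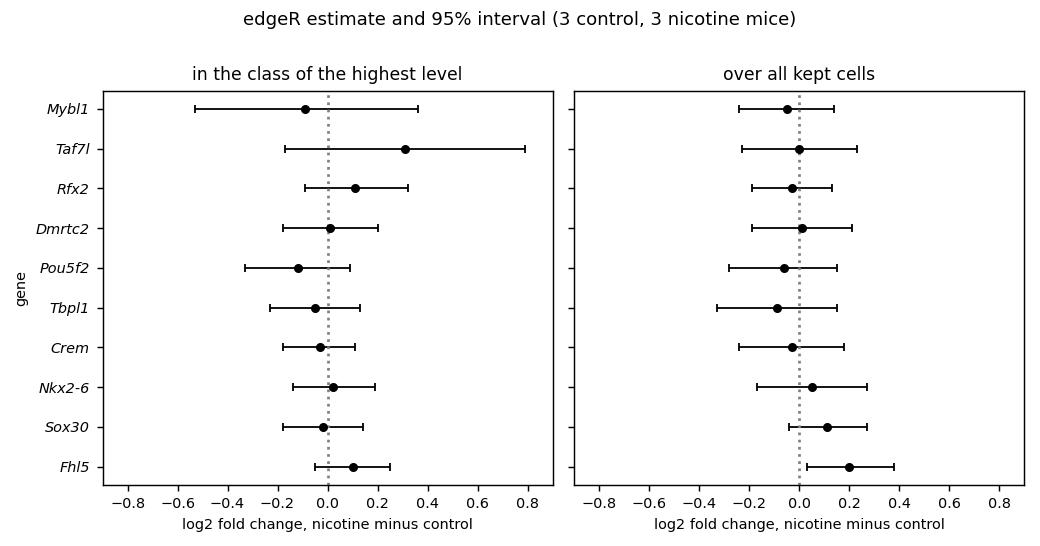
edgeR log2 fold change (horizontal axis, nicotine minus control) with its 95% interval for each regulator, in the class of its highest level (left) and over all kept cells (right), from 3 control and 3 nicotine mice. All 10 intervals on the left hold 0; on the right the interval of Fhl5 runs from 0.03 to 0.38.

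Outside the highest classes, the smallest adjusted p of a member was that of Nkx2-6 in the joint dividing/round class. Those of Mybl1 in the same class and of Nkx2-6 in the dividing class came next. For Nkx2-6 these are the 2 classes next after the spermatocyte-like classes where it was near its Leydig-like level. In dividing spermatocytes control mice had 51.8, 63.7 and 63.9 CPM and nicotine mice 75.5, 74.2 and 87.9 CPM, with no overlap, and the difference was 0.38 ± 0.0999 on the log2 scale (SE; adjusted p = 0.209, edgeR). In the joint dividing/round class they had 89.6, 108 and 124 CPM against 196, 130 and 138 CPM, again with no overlap, a log2 fold change of 0.59 ± 0.163 (adjusted p = 0.179). The first difference passed the threshold when no doublets were removed (0.63, edgeR adjusted p = 0.0205) and when cells under 1000 UMIs were left out (0.46, adjusted p = 0.0282), and the second without control mouse 3 (0.65, adjusted p = 0.0447). With no doublet removal and with the minimum of 1000 UMIs the joint dividing/round class was not formed, so the dividing class need not hold the same cells there. Genes called in the fits where Nkx2-6 passed also rose, from 2 to 62 and 13 in the dividing class and from 4 to 87 in the joint class. Over the alternatives the adjusted p by edgeR or DESeq2 ran from 0.0205 to 0.999 in the first class and from 0.0447 to 0.966 in the second. The background in these classes was 0.0161% and 0.0555% of genes called, and 7.43% and 11.1% at an unadjusted edgeR p under 0.05. The groups did not overlap in 1507 of 12400 genes tested in the dividing class and in 1114 of 7208 in the joint class. Mybl1 went the other way in the joint dividing/round class, with 22.3, 29.4 and 27.6 CPM in control mice and 6.01, 15.2 and 13.1 CPM in nicotine mice, a log2 fold change of -1.03 ± 0.314 (edgeR adjusted p = 0.196) far below its highest level. The joint class held 152 Mybl1 UMIs in all. In Leydig-like cells Mybl1 was also lower without overlap, at 9.27, 11.5 and 16.1 CPM in control and 6.83, 3.45 and 3.88 CPM in nicotine mice. In Sertoli-like cells it had 37.3 ± 4.76 CPM in control and 47.7 ± 13.3 CPM in nicotine mice. The joint class takes 30 to 167 cells from each mouse. The part of that uneven make-up in its Nkx2-6 and Mybl1 values was not tested, nor was that of free RNA.

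For Tbpl1 the nicotine mice lay above the control mice without overlap in 5 of 12 classes, which were the early spermatocyte-like, joint round/elongating and all 3 elongating classes. In the early spermatocyte-like class control mice had 279, 298 and 245 CPM and nicotine mice 326, 370 and 366 CPM (log2 fold change 0.37 ± 0.156, edgeR adjusted p = 1), and in the third elongating class 213, 213 and 174 CPM against 253, 257 and 238 CPM (0.22 ± 0.095, adjusted p = 0.609). The joint round/elongating, first and second elongating classes had log2 fold changes of 0.24, 0.22 and 0.18. In Sertoli-like cells, where Fhl5 also had 103 ± 18.7 CPM, Tbpl1 had 904, 915 and 765 CPM in control mice and 1007, 1035 and 945 CPM in nicotine mice, and the Leydig-like level, 201 CPM, exceeds that of the 3 middle classes. The part of free RNA in these differences was not tested. Pou5f2 and Crem did not overlap in 2 classes each, and over all members 12 of 112 pairs did not overlap (10.7%), near the 10.3% of all gene tests. When no doublets were removed, Tbpl1 was lower in the joint early/late class (-0.52, edgeR adjusted p = 0.048), a fit in which 383 genes were called, against 1 with doublets removed.

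**Figure D5:**
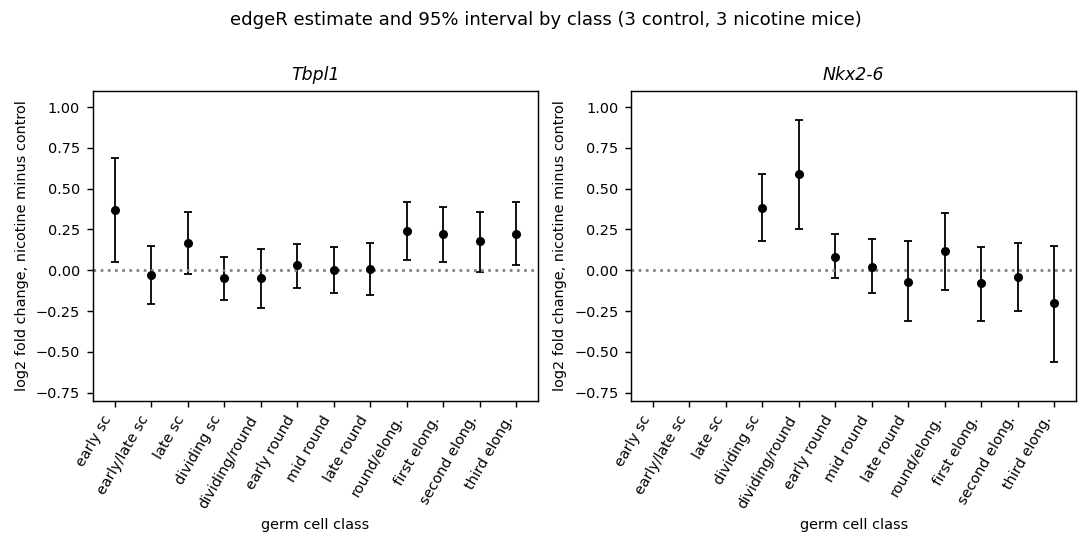
edgeR log2 fold change (vertical axis, nicotine minus control) with its 95% interval for Tbpl1 and Nkx2-6 in each ranked germ cell class (horizontal axis), from 3 control and 3 nicotine mice; classes without a point were not tested. Nkx2-6 stands at 0.38 and 0.59 in the 2 classes of division and within 0.20 of 0 after that, and Tbpl1 at 0.18 to 0.24 in the 4 classes after round spermatids.

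Over all kept cells, which reads the testis as a whole, 0 of 10 members were called by edgeR, against 0.264% of 21998 genes (58 genes), and 0 by DESeq2, which called 184 genes. Fewer cells of a stage and less RNA per cell cannot be told apart in such sums. Fhl5 was the member with an unadjusted p under 0.05, with 307, 344 and 339 CPM in control mice and 372, 364 and 390 CPM in nicotine mice and no overlap, a difference of 0.20 ± 0.0804 on the log2 scale (95% interval 0.03 to 0.38, edgeR adjusted p = 0.546). Genes of this kind, with no overlap of the groups, were 10.7% of those tested, and 1 of 10 members. The other 9 had log2 fold changes from -0.09 (Tbpl1, 95% interval -0.33 to 0.15) to 0.11 (Sox30, -0.04 to 0.27). The number of calls depended on the mice used. Without control mouse 3 or without nicotine mouse 1 no gene passed the threshold, and without control mouse 2 there were 13. Without control mouse 1, nicotine mouse 2 or nicotine mouse 3 there were 48, 44 and 41. Each of these fits has 2 mice in 1 group, so it also has less power.

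Related and dependent genes were read from lists and gave few calls. Of 23 paralogs of the members, 161 gene and class pairs were tested in the 12 classes and 0 were called by edgeR (4 at an unadjusted p under 0.05, 0 by DESeq2). Of 43 other regulators of spermatogenesis, among them Stra8, Tcfl5, Brdt and Ybx2, 336 pairs were tested and 0 called (13 unadjusted, 0 by DESeq2). The lists' median log2 fold changes lay between -0.08 and 0.11 and between -0.03 and 0.07 over the classes, beside -0.01 to 0.00 over all genes. Genes described as targets gave 0 of 132 pairs for Mybl1 (8 unadjusted, 0 by DESeq2), 0 of 164 for Rfx2 (10 unadjusted, 0 by DESeq2) and 0 of 92 for Sox30, Taf7l or Tbpl1 (10 unadjusted, 0 by DESeq2). Of all gene tests in the 12 classes, 0.0153% were called by edgeR and 4.92% had an unadjusted p under 0.05. Paralogs and other regulators lay below that unadjusted share. These target lists lay above it, that of Sox30, Taf7l or Tbpl1 the most. Over all kept cells no gene of any list was called by edgeR. At an unadjusted p under 0.05 there were 1 of 19 paralogs and 2 of 40 other regulators, against 7.06% of all genes. DESeq2 called 1 paralog there, among 184 genes in all.

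The list of 14 Crem targets gave 3 calls by edgeR in 163 pairs (1.84%, against 0.0153% of all gene tests), all in spermatocyte-like classes, and 27 pairs at an unadjusted p under 0.05 (16.6%, against 4.92%). DESeq2 called 3 pairs, all in the late class: Oaz3, Prm2 and Smcp. The 3 genes are also among the markers that named the elongating classes. In the late class edgeR called 11 genes (0.104% of those tested), and all of them fell. Besides Oaz3 and Prm2 they included Lelp1, Cabs1, Gsg1 and Tppp2, which are not on the list. Smcp, a sperm mitochondrial capsule protein, rose in the joint early/late class (log2 fold change 0.63 ± 0.117, edgeR adjusted p = 0.0459), from 109, 90.9 and 109 CPM to 178, 152 and 151 CPM. That call held in 4 of 12 alternatives: it was lost by DESeq2 (adjusted p = 1), with finer clusters, with a minimum of 1000 UMIs and without any single mouse other than nicotine mouse 3, over an adjusted p from 0.00479 to 1. In the late class Smcp had the opposite sign (-0.81 ± 0.168 by edgeR, adjusted p = 0.228, and -0.81 by DESeq2, adjusted p = 0.00347). Oaz3, the germ cell antizyme, fell in the late class (-0.73 ± 0.118, adjusted p = 0.00031), from 156, 133 and 141 CPM to 96.2, 72.6 and 90.1 CPM. The protamine Prm2 fell there too (-0.63 ± 0.114, adjusted p = 0.0175), from 1695, 1543 and 1276 CPM to 1011, 773 and 1110 CPM. With no doublet removal neither was called (Oaz3 -0.19, Prm2 -0.22, edgeR adjusted p = 0.999 for both), nor was either without nicotine mouse 2 (Oaz3 -0.62, adjusted p = 0.0683, and Prm2 -0.50, adjusted p = 0.209). Prm2 was also lost without nicotine mouse 1 (-0.67, edgeR adjusted p = 0.0873), and the adjusted p over 12 alternatives ran from 1.16e-05 to 0.999 for Oaz3 and from 1.97e-08 to 0.999 for Prm2. In Leydig-like cells the means were 230 ± 93.2 and 200 ± 59.7 CPM for Smcp, 131 ± 53.2 and 87.6 ± 23 CPM for Oaz3 and 1572 ± 825 and 1216 ± 165 CPM for Prm2 in control and nicotine mice. In the late class every nicotine mouse also had a lower median UMI number per cell than every control mouse. The part of free RNA and of depth in these calls was not tested. In the late class the median over the 13 tested Crem targets was -0.50 beside 0.00 over all genes, with 12 lower and 1 higher. The targets of Sox30, Taf7l or Tbpl1 had a median of -0.38 there, with all 7 tested lower, and 0.25 in the joint early/late class, with all 7 tested higher. That list shares Prm1 and Tnp1 with the Crem targets. For the Crem targets in mid round spermatids, the stage of highest Crem, the median was -0.05 beside 0.00, with 0 of 14 called by edgeR or DESeq2. There 11 were lower and 3 higher. Medians were -0.11 in early round spermatids and -0.18 in the third elongating class, each with 13 lower, 1 higher and 0 called. In late round spermatids the median was 0.01, with 6 lower and 8 higher. Over all kept cells it was 0.05, with 2 lower and 12 higher.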

How the data were processed

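The authors deposited raw UMI counts for each gene in each cell barcode. Cell Ranger 7.2.0 and GRCm38 (mm10) are named per the submitters' processing notes. No source used here says whether reads in introns were counted or how barcodes were chosen. Barcodes with fewer than 500 UMIs, fewer than 250 genes, or 20% or more mitochondrial UMIs were dropped. Scrublet's own threshold marked under 0.5% of cells in 3 libraries, so cells were removed from the top of its score at a set rate of 0.8% per 1000 cells, which took 8.62% to 9.76% of each library. Counts scaled to 10000 per cell and log-transformed were clustered with scanpy 1.11.5 (2000 variable genes without the members, 30 principal components, 15 neighbours, Leiden resolution 1). Germ cell clusters with a median of at least 2467 UMIs, the median of all kept cells, were pooled and clustered again at 1.5, and somatic clusters again at 1. Classes were named from marker lists and put in order by marker scores by hand, so they can differ from those of the study.

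For each class, the counts of a mouse's cells were added up. Ranked classes had at least 20 cells in every mouse. Tests used edgeR 4.0.16 (filterByExpr, TMM, robust quasi-likelihood) in R 4.3.3, with DESeq2 1.42.0 as an alternative. The edgeR script was tested on simulated counts. Of 1.5-fold changes it recovered 20.9% in the early spermatocyte-like, 49.3% in the late spermatocyte-like and 59.7% in the mid round class, and 44.8% over all kept cells. False calls were 19 of 135, 7 of 154, 12 of 171 and 27 of 174 in the same order. Each fit covered all genes of 1 class. All 10 members are named, each with its difference in its highest class; from the lists at most 3 rises and 3 falls among called genes with at least 10 CPM are named, and the 3 most like genes per member. The members and the lists were chosen with earlier results of these data known. Libraries come from separate mice, per the labels' protocols. Promoter windows are from RefSeq, GRCm38.p6, and gene positions from the GENCODE annotation of GRCm38. Shares of cells with a UMI were computed after each cell was thinned to 2000 UMIs, without cells of fewer UMIs (0 to 144 per class, 52 in the early spermatocyte-like class). Intervals of 95% cover the spread between mice as modelled by edgeR.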

Additional observations from a re-analysis of the deposited data

How the results depend on the processing

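Of the 10 highest classes, 10 were the same without any single mouse but nicotine mouse 1, whose absence lets the joint late/dividing class be ranked and moves Rfx2 and Pou5f2 to it (8 the same). Levels per cell in place of CPM left 7, no doublet removal 9, a minimum of 1000 UMIs 8 and finer clusters 9, and each change was to a class 1 or 2 steps away. Member pairs called in the 12 classes were 2 with no doublet removal, 1 with a minimum of 1000 UMIs, and 0 to 1 when single mice were left out; DESeq2, no filter on low counts and finer clusters gave 0. Over all kept cells 0 members were called under each of 10 alternatives run. The joint dividing/round class was not formed with no doublet removal or a minimum of 1000 UMIs, so Tbpl1 has no value in its highest class there.

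Single differences near 0 turned in sign without being called. In the highest class this was so for Sox30 with finer clusters (0.01) and Dmrtc2 with no filter (-0.01) or finer clusters (-0.00). With single mice left out, Mybl1 ran from -0.39 to 0.07, Crem from -0.10 to 0.04, Nkx2-6 from -0.04 to 0.11 and Dmrtc2 from -0.03 to 0.03. Over all kept cells Taf7l turned by DESeq2 (0.01), with the replicate block (0.00), with no doublet removal (0.01) and with a minimum of 1000 UMIs (0.01). With single mice left out, Mybl1 ran from -0.09 to 0.03, Crem from -0.10 to 0.04, Taf7l from -0.10 to 0.07, Nkx2-6 from -0.03 to 0.15, Pou5f2 from -0.14 to 0.01 and Dmrtc2 from -0.06 to 0.08. The cause was not tested.

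Mice carry the numbers 1 to 3 in both groups, and nothing in the labels pairs them, so the numbers were not taken as pairs. Over all kept cells, deviations of same-numbered mice from their group means correlated at -0.32, 0.88 and 0.14. In the second elongating class these correlations were 0.20, 0.68 and 0.28. Such mixed values cannot decide whether equal numbers are pairs. The block moved genes called from 0 to 14 in the second and from 2 to 43 in the third elongating class, none of them a member. With the replicate block 0 member pairs were called in the 12 classes and 0 over all kept cells.

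With 3 mice a group and 51 to 75 early spermatocyte-like cells per mouse, the intervals of Mybl1 and Taf7l were the widest. Unstaged clusters are outside the order, and in them Mybl1 reached 152 CPM, Rfx2 186 CPM and Pou5f2 227 CPM. Counting of 3′ ends does not separate isoforms.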
